A study of Mus musculus with 12 samples.

Results

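The Rel subunits other than p50/p105 and the IkB proteins were followed as 9 genes: the subunit genes Rel, Rela, Relb and Nfkb2, the classical inhibitor genes Nfkbia, Nfkbib and Nfkbie, and the atypical, nuclear IkB genes Nfkbiz and Bcl3. They were found in the files by gene symbol, the list itself having been drawn up with earlier results of these data known, and each was read by the probe set with the highest mean signal over the arrays, so that 9 of 12393 genes and 14 of 20380 single-gene probe sets belonged to the set. The question was whether these remaining subunits and inhibitors changed in macrophages that lack p50/p105. The cells were bone marrow-derived macrophages of strain 129-SvEv-Tac, grown from marrow for 5 days in 30% L-cell conditioned medium. All of them, controls included, lacked IL-10 (IL10-/-), and the compared genotype also lacked p50 (p50-/-IL10-/-). Each genotype was left unstimulated, given 1 ng/ml of the bacterial product LPS, or given LPS with 0.3 ng/ml of IL-10, the anti-inflammatory cytokine, for 4 hours. Each of the 6 groups had 2 arrays, 12 in all. The labels call them biological replicates without saying whether they came from separate animals or cultures, so the p-values measure only the spread between these samples. The labels give no further detail of either allele. Transcripts of the gene for p50/p105 were not analysed here, so the genotypes rest on the labels.

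NF-kB is a family of dimeric transcription factors. In resting macrophages the dimers are held in the cytoplasm by IkB proteins, and signalling from Toll-like receptors through the IKK kinases destroys the IkB so that the dimers enter the nucleus. RelA, c-Rel and RelB carry activation domains, while p50 and p52, made from the precursors p105 and p100, do not, and p50 homodimers can occupy kappa-B sites without activating them. Several IkB genes and subunit genes are themselves NF-kB targets, which makes the family a textbook case of feedback. The nuclear proteins encoded by Nfkbiz and Bcl3 act with p50 or p52 dimers on chromatin.

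The promoters of the members were read from RefSeq (GRCm38.p6), because the kappa-B site is the sequence through which the family acts on its own genes. Windows of 300 bases, 250 before the start site and 50 after it, were held for 7 of the 9 members, in 9 windows, since Nfkb2 has 3. Matches to the kappa-B consensus were searched on both strands, together with the STAT-like motif TTCNNNGAA, the kind of site bound by the STAT factors of cytokine signalling. The consensus matched 4.51% of all 32851 windows of that length and the STAT-like motif 8.3%. Rel, Nfkb2, Nfkbia, Nfkbie and Bcl3 had a kappa-B match, and Rela and Nfkbib had none in their windows. Relb and Nfkbiz had no window and were not searched. Among the 7 members searched, Nfkb2 alone had a STAT-like match. The 4 stretches printed here are the 250 bases before the start sites of Rel (chr11:23770970-23771219, minus strand), Nfkb2 (first window, chr19:46304487-46304736, plus strand), Nfkbia (chr12:55492648-55492897, minus strand) and Nfkbie (chr17:45555450-45555699, plus strand), written 5′ to 3′ with motif matches in capitals. They are shown because these genes include the members with the largest genotype differences in unstimulated cells (Nfkbie and Nfkb2), a member that was higher without p50 (Rel), and one whose level was nearly the same in both genotypes by its brightest probe set (Nfkbia).
Rel: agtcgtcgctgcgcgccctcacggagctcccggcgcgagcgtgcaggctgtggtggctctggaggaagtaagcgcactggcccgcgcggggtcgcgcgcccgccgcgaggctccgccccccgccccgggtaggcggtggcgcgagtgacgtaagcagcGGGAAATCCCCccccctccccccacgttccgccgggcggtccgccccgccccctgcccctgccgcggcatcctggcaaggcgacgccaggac
Nfkb2: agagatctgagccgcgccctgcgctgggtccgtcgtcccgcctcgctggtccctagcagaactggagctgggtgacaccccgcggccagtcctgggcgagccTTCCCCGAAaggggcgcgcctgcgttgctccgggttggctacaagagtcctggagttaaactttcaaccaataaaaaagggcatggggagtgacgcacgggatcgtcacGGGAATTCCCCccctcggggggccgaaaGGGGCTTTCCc
Nfkbia: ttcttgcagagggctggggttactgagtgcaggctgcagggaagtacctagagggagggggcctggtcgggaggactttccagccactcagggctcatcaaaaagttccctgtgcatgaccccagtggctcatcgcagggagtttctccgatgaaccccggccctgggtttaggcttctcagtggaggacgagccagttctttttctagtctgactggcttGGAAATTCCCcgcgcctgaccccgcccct
Nfkbie: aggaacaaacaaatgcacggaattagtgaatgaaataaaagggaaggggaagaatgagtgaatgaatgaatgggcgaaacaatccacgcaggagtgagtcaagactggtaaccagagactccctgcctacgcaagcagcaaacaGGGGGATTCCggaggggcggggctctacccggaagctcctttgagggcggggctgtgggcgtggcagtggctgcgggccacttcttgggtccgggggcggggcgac
Positions are counted from the start site. In Rel the stretch at -92 fitted the kappa-B consensus on both strands, with an overlapping match at -91 on the opposite strand. Nfkb2 had the same arrangement at -39 and -38 of its first window, a further kappa-B match at -11, and the STAT-like match, also readable on both strands, at -148. Nfkbia matched at -29 on the opposite strand and Nfkbie at -106. The other Nfkb2 windows overlap each other. The second held matches at -236 and 11, and the match at -225 of the third is the same stretch as the one at 11. The Bcl3 match lay at position 3, inside the transcribed stretch. These matches describe the letters of the windows and are not evidence of binding.

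Array medians were 6.92 to 6.96 log2 and the 2 arrays of a group correlated at 0.992 to 0.997 across genes. The lowest member values, 6.37 to 6.65 for Rel and 6.65 and 6.97 for Nfkbie in unstimulated cells, were in or near the range of B cell marker genes (gene means 5.62 to 6.56 over the arrays). The 8 macrophage markers had gene means of 9.64 to 14.05 and a list mean per array of 12.10 to 12.55 log2 in IL10-/- cells and 12.01 to 12.23 in p50-/-IL10-/- cells. Cd68 was higher and Adgre1, Itgam and Mrc1 were lower without p50, averaged over stimuli. Of all genes 10.6% were called higher and 15.1% lower in that average. All 7 measured neutrophil and granulocyte precursor markers were lower without p50 (list mean 8.24 to 8.43 against 8.89 to 9.12), as were 4 of 6 stromal markers (5.83 to 6.17 against 6.39 to 6.95). Of 5 mast cell and basophil markers 1, Mcpt8, was lower, and the list means overlapped (5.25 to 5.41 against 5.24 to 5.42). Of 4 measured dendritic cell markers 1, Itgax, was higher, with group means of 10.48 to 10.72 against 7.84 to 7.97. The mean of that list was 6.87 to 7.20 against 6.18 to 6.46. No B cell marker (list mean 5.78 to 6.17 against 5.90 to 6.10), T and NK cell marker (5.74 to 5.94 against 5.72 to 5.90) or erythroid marker (6.36 to 6.63 against 6.35 to 6.52) passed the test averaged over stimuli. In bulk samples fewer cells of a type and less RNA per cell cannot be told apart, and the part of these markers in the genotype differences described next was not tested.

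**Figure D1:**
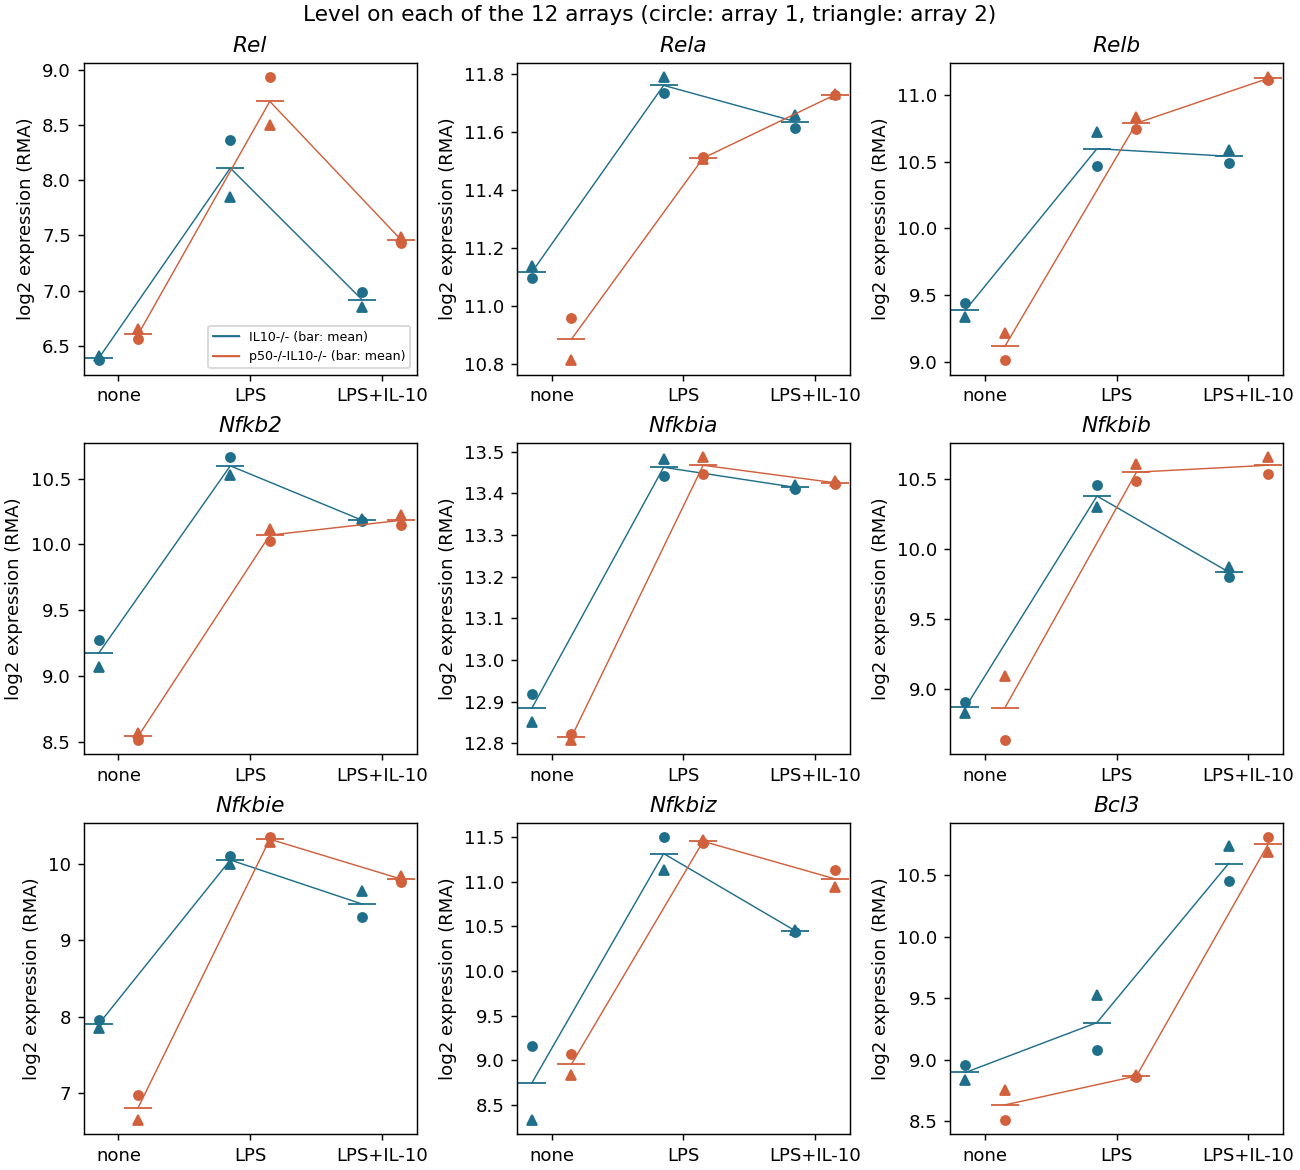
Log2 signal of the 9 members on each of the 12 arrays, by genotype and stimulus. Points are single arrays, bars are group means joined by lines, and each panel has its own scale. The panels show Nfkbie lowest in unstimulated p50-/-IL10-/- cells and Bcl3 highest in the groups given LPS plus IL-10.

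LPS raised 8 of the 9 members in each genotype. With LPS plus IL-10, Rel and Nfkbie were lower and Bcl3 was higher than with LPS alone in both genotypes. The Nfkbie calls were lost in some fits that left out 1 array. Without p50, Nfkb2 and Nfkbie were lower before stimulation, Nfkb2 was still lower with LPS, and Relb and Nfkbib were higher with LPS plus IL-10. Rel, encoding c-Rel, was higher without p50 with either stimulus, by 1.52-fold and 1.45-fold, but each call was lost in 8 of the 12 fits that left out 1 array. The members are taken in turn by role, with differences on the log2 scale ± SE from limma and p-values adjusted over all 12393 genes. A difference was called at an adjusted p under 0.05.

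Rel (probe set 1420710_at) encodes c-Rel, the subunit of activated lymphocytes and myeloid cells. In IL10-/- cells it read 6.37 and 6.40 log2 unstimulated, 8.37 and 7.85 with LPS, and 6.99 and 6.85 with LPS plus IL-10. In p50-/-IL10-/- cells it read 6.56 and 6.65, then 8.93 and 8.50, then 7.43 and 7.48. Each p50-/-IL10-/- group lay above its IL10-/- counterpart with no overlap. With 2 arrays a group such separation says little by itself. Nfkbia also showed it with LPS plus IL-10, at a genotype difference of 0.01. LPS raised Rel by 1.73 ± 0.17 (adjusted p = 3.65e-05) and by 2.11 (adjusted p = 5.97e-06) without p50. IL-10 lowered it from the LPS level in both genotypes, with changes of -1.19 (adjusted p = 0.00168) and -1.26 (adjusted p = 0.00167). The genotype difference was 0.22 unstimulated (adjusted p = 0.661), 0.61 ± 0.17 with LPS (adjusted p = 0.0383) and 0.54 ± 0.17 with LPS plus IL-10 (adjusted p = 0.0479). Averaged over stimuli it was 0.45 ± 0.10 (adjusted p = 0.00565), and this call held without any 1 of the 12 arrays. With LPS alone the difference was 0.35 when array 2 of the LPS-treated IL10-/- group was left out and 0.39 when array 1 of the LPS-treated p50-/-IL10-/- group was (adjusted p = 0.274). With both agents the adjusted p reached 0.226, at 0.47, when array 2 of the IL10-/- group was left out.

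Rela (probe set 1419536_a_at) encodes RelA, the main activating partner of p50. It read 11.10 and 11.14 log2 in unstimulated IL10-/- cells, 11.73 and 11.79 with LPS, and 11.61 and 11.66 with LPS plus IL-10. The p50-/-IL10-/- values were 10.96 and 10.81, then 11.51 and 11.51, then 11.73 and 11.73. LPS raised it by 0.64 ± 0.07 (adjusted p = 0.000125) and by 0.62 (adjusted p = 9.30e-05). The unstimulated arrays lay below the stimulated ones in both genotypes. IL-10 changed Rela by -0.12 (adjusted p = 0.473) and 0.22 (adjusted p = 0.113), neither past the threshold. Rela did not pass in any single genotype comparison, with -0.23 unstimulated (adjusted p = 0.167), -0.25 with LPS (adjusted p = 0.0528) and 0.09 with both (adjusted p = 0.419). The averaged difference of -0.13 ± 0.04 (adjusted p = 0.0478) was lost in 10 of 12 fits without an array, up to an adjusted p of 0.125, and with the replicate block (adjusted p = 0.0612).

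Relb (probe set 1417856_at) encodes RelB, the partner of p52 in the slower NF-kB arm. In IL10-/- cells it read 9.44 and 9.33 log2, then 10.47 and 10.73 with LPS, then 10.49 and 10.59 with LPS plus IL-10. The other genotype read 9.01 and 9.22, then 10.74 and 10.84, then 11.12 and 11.13. The last group stood above all others. LPS raised Relb by 1.21 ± 0.10 (adjusted p = 1.53e-05) and 1.67 (adjusted p = 1.24e-06). Only with LPS plus IL-10 was Relb called different between genotypes, 0.58 ± 0.10 higher without p50 (adjusted p = 0.00401). That call held in all 12 fits without an array. Averaged over stimuli the difference was 0.17 (adjusted p = 0.0640), which passed with the replicate block (adjusted p = 0.0466). The IL-10 effect on Relb was -0.06 in IL10-/- cells (adjusted p = 0.883) and 0.34 in p50-/-IL10-/- cells (adjusted p = 0.0827).

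Nfkb2 (probe set 1425902_a_at) encodes p100, which is processed to p52 and which, unprocessed, retains other subunits in the cytoplasm. Its signal in IL10-/- cells was 9.28 and 9.07 log2, rising to 10.66 and 10.53 with LPS and to 10.17 and 10.19 with LPS plus IL-10. In p50-/-IL10-/- cells the same groups read 8.51 and 8.57, 10.02 and 10.12, and 10.15 and 10.22. The genotypes did not overlap before stimulation or with LPS, and they overlapped with LPS plus IL-10. Nfkb2 was 1.55-fold lower without p50 unstimulated (-0.63 ± 0.09, adjusted p = 0.00411) and 1.44-fold lower with LPS (-0.53 ± 0.09, adjusted p = 0.00388). Both calls held in all 12 fits without an array. The difference with both was -0.0007 ± 0.09 (adjusted p = 0.997, 95% interval -0.20 to 0.20). LPS raised it in both, by 1.42 ± 0.09 and 1.53. IL-10 lowered it in IL10-/- cells (-0.41, adjusted p = 0.0201), a call lost without array 1 of the LPS-treated IL10-/- group (-0.35, adjusted p = 0.132) or without either array of the IL10-/- group given both. In p50-/-IL10-/- cells the effect was 0.11 (adjusted p = 0.481, 95% interval -0.08 to 0.31).

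Nfkbia (probe set 1420088_at) encodes IkB-alpha, the fast, NF-kB-induced inhibitor. IL10-/- arrays read 12.92 and 12.85 log2, then 13.44 and 13.48, then 13.41 and 13.42, and p50-/-IL10-/- arrays 12.82 and 12.81, then 13.45 and 13.49, then 13.42 and 13.43. All unstimulated arrays lay below all stimulated ones, and the genotypes overlapped with LPS. LPS raised it by 0.58 ± 0.07 (adjusted p = 0.000135) and 0.65 (adjusted p = 3.48e-05). The genotype difference was -0.07 unstimulated (95% interval -0.22 to 0.08) and 0.00 with LPS (-0.15 to 0.15). With LPS plus IL-10 it was 0.01 (-0.14 to 0.16), but 0.24 and called when the mean of the gene's probe sets was used. The dimmer probe sets of the gene, described below, had larger LPS responses and differed in the genotype calls. IL-10 changed it by -0.05 (adjusted p = 0.830) and -0.04 (adjusted p = 0.755). The brightest probe set of each array read 14.17 to 14.22.

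Nfkbib (probe set 1421266_s_at) encodes IkB-beta, an inhibitor with slower turnover. Its IL10-/- arrays read 8.91 and 8.83 log2, 10.46 and 10.30 with LPS, and 9.80 and 9.87 with LPS plus IL-10. Without p50 it read 8.64 and 9.09, then 10.49 and 10.61, then 10.54 and 10.66. The groups given both agents did not overlap, and the unstimulated groups did. Nfkbib was higher without p50 by 0.76 ± 0.13 with LPS plus IL-10 (1.70-fold, adjusted p = 0.00354). The difference was 0.17 with LPS (adjusted p = 0.493) and 0.00 unstimulated (95% interval -0.30 to 0.29). LPS raised it by 1.51 ± 0.13 and 1.68. IL-10 lowered it in IL10-/- cells (-0.54, adjusted p = 0.0363), and the change was 0.05 in p50-/-IL10-/- cells (adjusted p = 0.862). That IL-10 call was lost in 9 of 12 fits without an array, up to an adjusted p of 0.206 at -0.46 without array 1 of the LPS-treated IL10-/- group.

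Nfkbie (probe set 1431843_a_at) encodes IkB-epsilon, another inducible inhibitor. The IL10-/- values were 7.96 and 7.85 log2 unstimulated, 10.11 and 9.99 with LPS, and 9.30 and 9.65 with LPS plus IL-10. The p50-/-IL10-/- values were 6.97 and 6.65, then 10.36 and 10.29, then 9.76 and 9.84. The unstimulated p50-/-IL10-/- arrays were the lowest of all. Nfkbie was 2.14-fold lower there (-1.09 ± 0.13, adjusted p = 0.00161), whereas with LPS the difference was 0.27 ± 0.13 (adjusted p = 0.225) and with both 0.32 ± 0.13 (adjusted p = 0.108). LPS raised it 4.44-fold in IL10-/- cells (2.15 ± 0.13, adjusted p = 1.68e-06) and 11.5-fold in p50-/-IL10-/- cells (3.52, adjusted p = 4.39e-08). The LPS response was 1.37 ± 0.18 larger without p50 (adjusted p = 0.00888, 95% interval 0.96 to 1.77), and this call held in 12 of 12 fits without an array. IL-10 lowered it in both genotypes, with changes of -0.58 (adjusted p = 0.0235) and -0.52 (adjusted p = 0.0405). The first was lost without array 1 of the IL10-/- group given LPS or of the one given both (-0.40, adjusted p = 0.181), and the second in 6 of 12 fits, up to an adjusted p of 0.190 at -0.49.

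Nfkbiz (probe set 1417483_at) encodes IkB-zeta, a nuclear IkB required for a class of late inflammatory genes. Its IL10-/- arrays read 9.16 and 8.33 log2, then 11.51 and 11.13, then 10.44 and 10.46, and its p50-/-IL10-/- arrays 9.07 and 8.84, then 11.44 and 11.47, then 11.13 and 10.94. Stimulated arrays lay above unstimulated ones, and the genotypes overlapped with no stimulus and with LPS. LPS raised it by 2.57 ± 0.22 (5.93-fold, adjusted p = 1.54e-05) and 2.50 (5.65-fold, adjusted p = 1.25e-05). IL-10 lowered it in IL10-/- cells (-0.87, adjusted p = 0.0438), a call lost in 9 of 12 fits without an array, up to an adjusted p of 0.268 at -0.68. In p50-/-IL10-/- cells the change was -0.42 (adjusted p = 0.281). The genotype difference with LPS plus IL-10 was 0.58 ± 0.22 and was not called (adjusted p = 0.0929). Apart from the fits that left out 1 array, it passed under 4 of 9 alternatives, among them the replicate block (adjusted p = 0.0423). The unstimulated IL10-/- arrays differed by 0.83, the widest gap of any member within a group.

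Bcl3 (probe set 1418133_at) encodes the nuclear IkB that binds p50 and p52 homodimers. It was called with IL-10 added to LPS and not with LPS alone, and no group was given IL-10 alone. It read in IL10-/- cells 8.96 and 8.84 log2, 9.08 and 9.52 with LPS, and 10.45 and 10.74 with LPS plus IL-10. Without p50 it read 8.51 and 8.76, then 8.86 and 8.88, then 10.81 and 10.69. The groups given IL-10 lay above all others and overlapped each other. The LPS change was 0.41 ± 0.15 in IL10-/- cells (adjusted p = 0.0719) and 0.23 without p50 (adjusted p = 0.279). The first rested on single arrays of the LPS-treated IL10-/- group: it was 0.63 without array 1 (adjusted p = 0.0126) and 0.18 without array 2 (adjusted p = 0.371). It also passed with array centring, with quantile normalization and with the block within genotypes. IL-10 raised Bcl3 by 1.29 (2.45-fold, adjusted p = 0.000532) and by 1.88 (3.69-fold, adjusted p = 8.24e-05). No genotype difference was called, the closest being -0.43 ± 0.15 with LPS (adjusted p = 0.0866). Without array 1 of the LPS-treated IL10-/- group this difference was -0.66 and passed (adjusted p = 0.0131), and without array 2 it was -0.21 (adjusted p = 0.430).

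**Figure D2:**
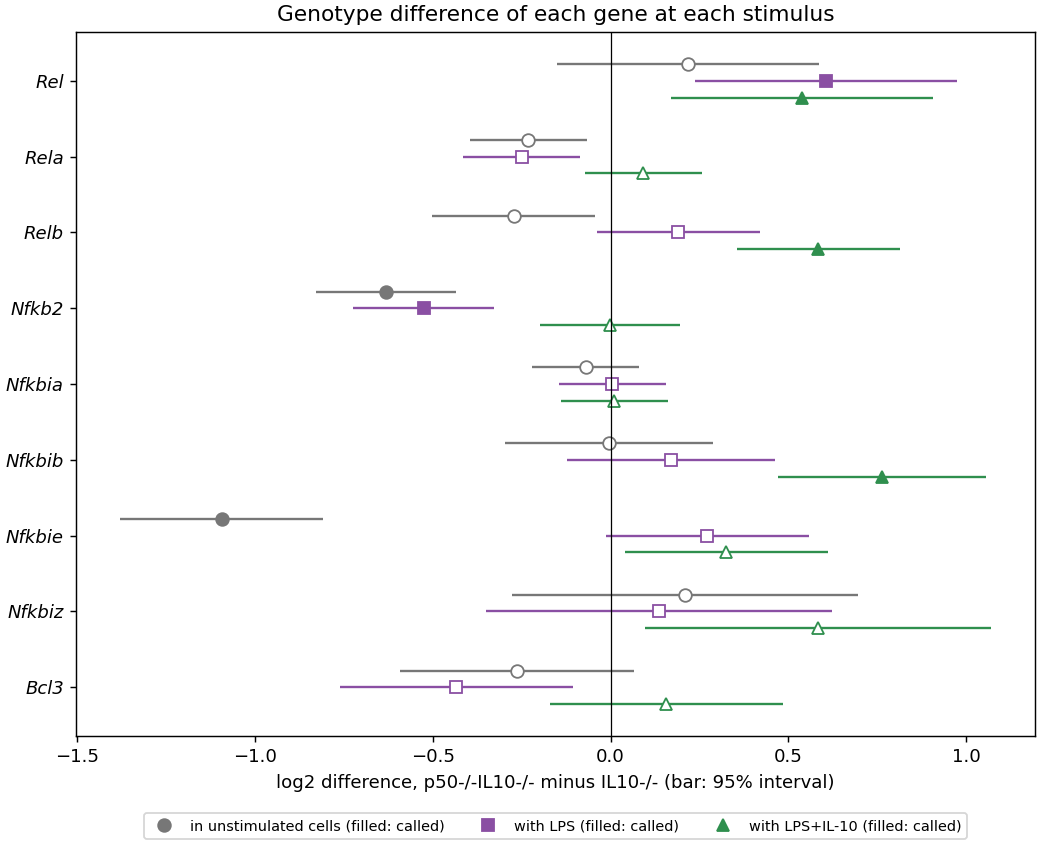
Difference in log2 signal between p50-/-IL10-/- and IL10-/- cells for each member under each stimulus, as limma estimates with 95% intervals, filled where called. Nfkbie and Nfkb2 lie below 0 unstimulated, and Relb and Nfkbib lie above 0 with LPS plus IL-10.

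The genotype calls were set against all genes. Unstimulated, 0 of 9 were higher and 2 lower, where 1.26% of all genes were called higher and 1.31% lower. With LPS 1 was higher and 1 lower, against 5.66% and 6.72%. With LPS plus IL-10 3 were higher (Rel, Relb and Nfkbib) and 0 lower, against 7.58% and 10.4%. The median member difference was -0.23 unstimulated, 0.14 with LPS and 0.32 with both, beside all-gene medians of -0.01, -0.02 and 0.04. Averaged over stimuli 2 were higher (Rel and Nfkbib) and 2 lower (Nfkb2 and Rela), against 10.6% and 15.1%. Centring each array on its median turned this split to 3 higher and 1 lower. The Rel call with LPS plus IL-10 was lost under array centring, quantile normalization, the mean of probe sets and a test of every probe set, and the Rel call with LPS was lost with only the groups compared. The Rela difference with LPS passed under 4 alternatives, among them quantile normalization.

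With LPS 8 members were called higher and 0 lower in each genotype, where 7.76% of all genes were called higher and 17.1% lower in IL10-/- cells, and 10.3% and 22.1% in p50-/-IL10-/- cells. The median member rose by 1.42 and 1.67, beside -0.01 for all genes in both. With LPS plus IL-10, 9 of 9 members were above the unstimulated level in each genotype, against 6.94% higher and 12.5% lower of all genes in IL10-/- cells, and 16.7% and 21.2% in p50-/-IL10-/- cells. For Rel in IL10-/- cells this was 0.53 (adjusted p = 0.0468), a call lost in 8 of 12 fits without an array, up to an adjusted p of 0.228. IL-10 added to LPS raised 1 member, Bcl3, in each genotype. It lowered 5 in IL10-/- cells (Rel, Nfkb2, Nfkbib, Nfkbie and Nfkbiz) and 2 in p50-/-IL10-/- cells (Rel and Nfkbie). All genes were called higher in 3.35% and lower in 2.82%, and 3.7% and 2.87%, respectively. With only the groups compared the IL10-/- calls of Nfkb2, Nfkbib and Nfkbie were lost, and under quantile normalization those of Nfkbiz in IL10-/- cells and Nfkbie in p50-/-IL10-/- cells were. The LPS response and the IL-10 effect share the LPS arrays.

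The difference in response between genotypes was tested directly. For LPS, 1 of 9 members was called higher, Nfkbie, and 0 lower, against 0.734% and 0.452% of all genes. Relb had 0.46 ± 0.15 (adjusted p = 0.247). For the IL-10 effect, 0 members were called in either direction by limma, against 0.0968% and 0.0403% of all genes. At an unadjusted p under 0.05 there were 5 of 9, all with a more positive IL-10 effect without p50, where 6.98% of all genes had that direction at the same threshold and 4.74% the opposite one. They were Rela (0.34), Relb (0.39), Nfkb2 (0.53), Nfkbib (0.59) and Bcl3 (0.59), with adjusted p-values of 0.207 to 0.355. The IL-10 effects on Nfkb2, Nfkbib and Nfkbiz, called in IL10-/- cells and not in p50-/-IL10-/- cells, were therefore not shown to differ between genotypes.

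**Figure D3:**
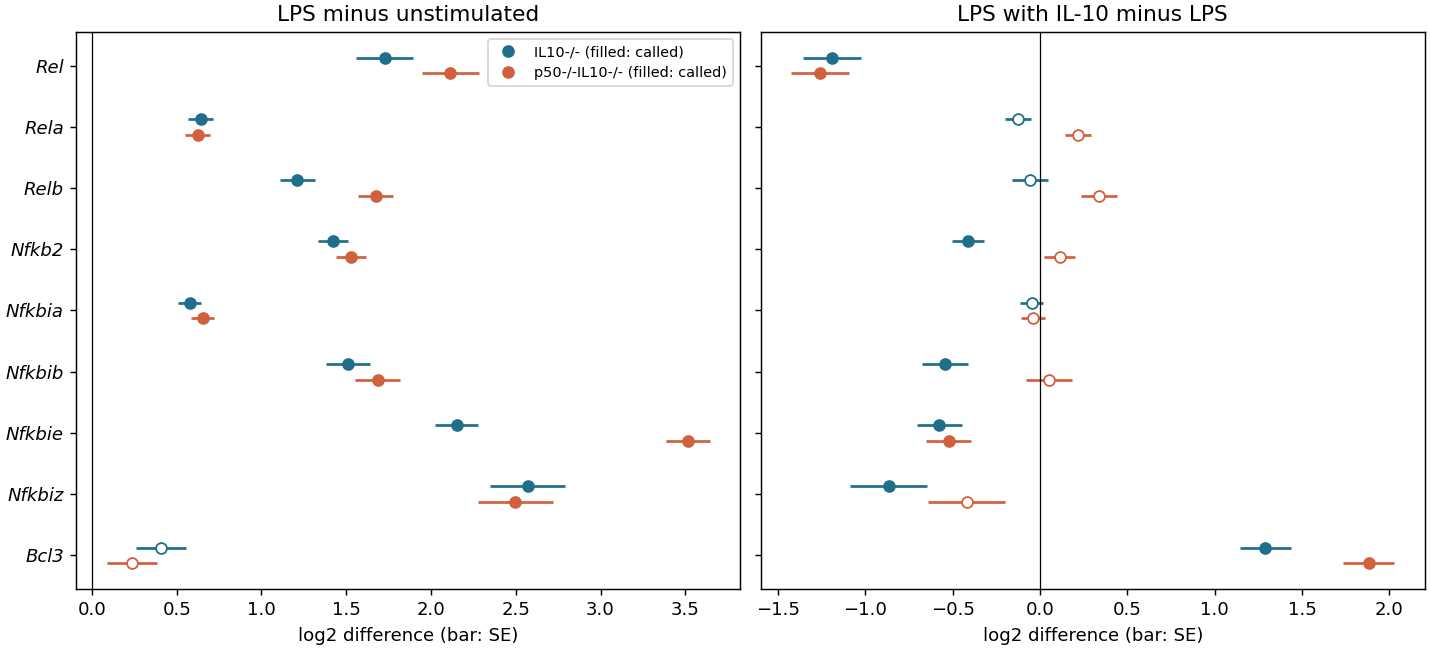
Log2 LPS response and IL-10 effect of each member in IL10-/- and p50-/-IL10-/- cells. Points are limma estimates, filled where called, and bars are 1 SE. The LPS response of Nfkbie is 2.15 in IL10-/- cells and 3.52 in p50-/-IL10-/- cells, and Bcl3 is the member raised by IL-10 added to LPS.

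Nfkbia, Nfkb2 and Nfkbiz had further probe sets, tested over all 20380. The other 3 Nfkbia probe sets, dimmer than the one above, gave larger LPS responses, 1.34 to 1.48 in IL10-/- cells and 1.51 to 1.75 in p50-/-IL10-/- cells. They differed in the genotype calls: 1448306_at was lower without p50 unstimulated (-0.51, adjusted p = 0.0301), and 1420089_at was higher with LPS plus IL-10 (0.48, adjusted p = 0.00673). The second Nfkb2 probe set, 1429128_x_at, was lower without p50 with LPS (-0.91, adjusted p = 0.00147), and its unstimulated difference of -0.32 did not pass (adjusted p = 0.258). It rose with LPS by 1.02 and 0.43, and its genotype difference in LPS response was -0.59 (adjusted p = 0.226), opposite in sign to the 0.10 of the other probe set. The second Nfkbiz probe set, 1448728_a_at, gave an IL-10 effect of -1.20 in IL10-/- cells (adjusted p = 0.00792) and was higher without p50 with LPS plus IL-10 by 0.86 (adjusted p = 0.022).

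**Figure D4:**
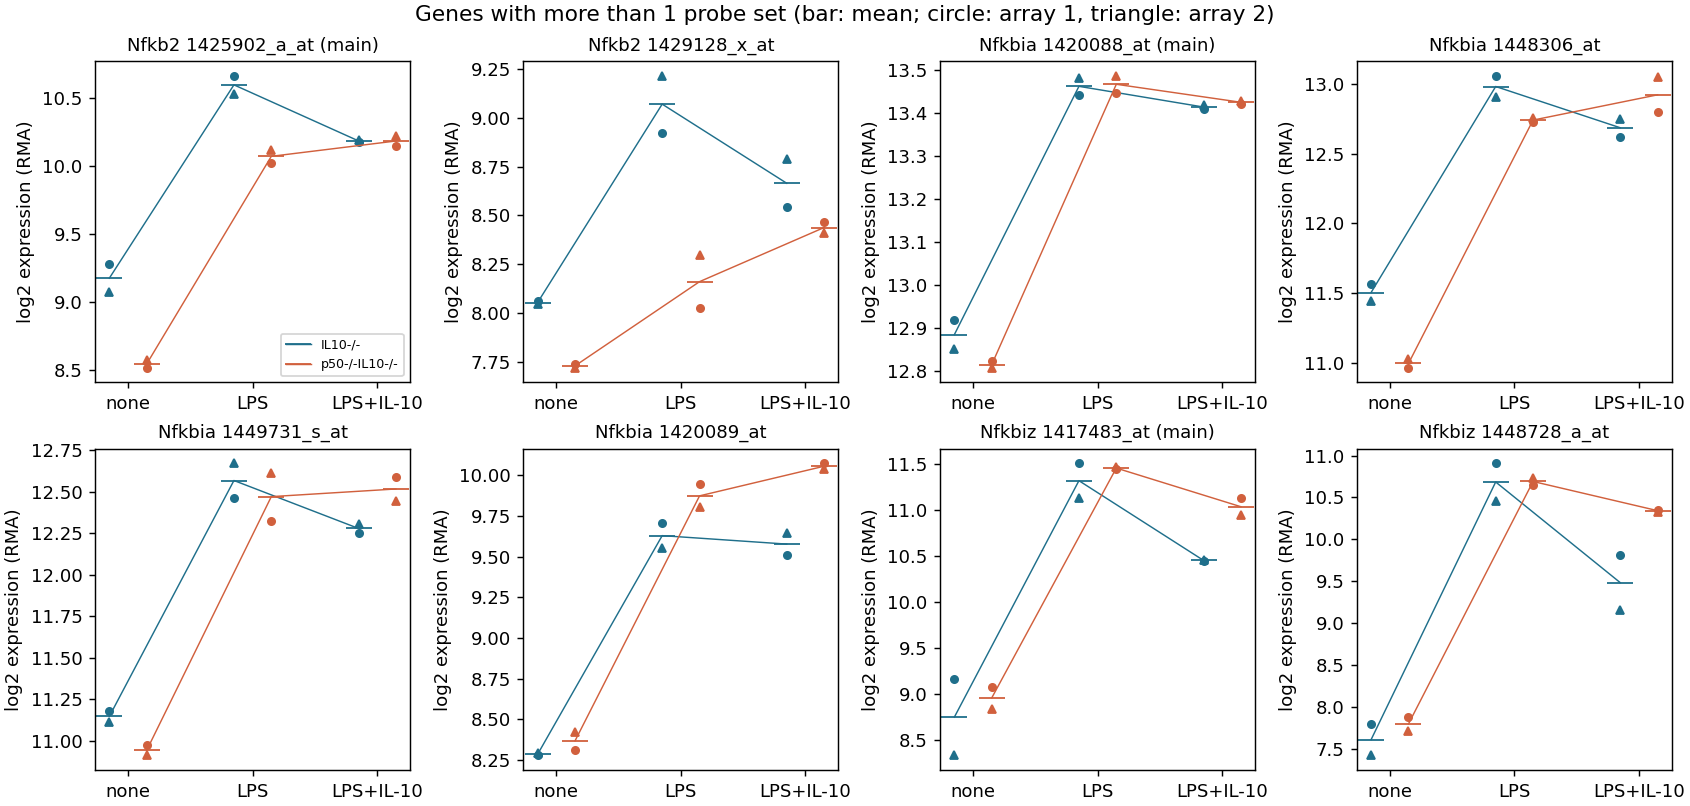
Log2 signal of every probe set of Nfkb2, Nfkbia and Nfkbiz on each array (circle, array 1; triangle, array 2; bar, group mean), with a scale of its own in each panel. The brightest Nfkbia probe set shows a smaller LPS response, 0.58 in IL10-/- cells, than the other 3.

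Other genes of the pathway were counted in 3 lists. Of 15 measured genes for the IKK complex, adaptors and activating kinases, LPS raised 7 and lowered 1 in IL10-/- cells (Myd88, 1.44, and Ikbke, 1.37, against Tab1, -0.47). In p50-/-IL10-/- cells LPS raised 6 and lowered 2. Between genotypes 0 were called unstimulated by limma, with 1 at an unadjusted p under 0.05. With LPS 2 were lower without p50, the scaffold Ikbkg (-0.52) and the kinase Ikbke (-0.48), and none higher. With LPS plus IL-10 the adaptor Myd88 (0.42) and Rbck1 (0.35) were higher and Ikbkg (-0.42) was lower. Of 10 measured genes of the p100 processing arm, LPS raised 5 and lowered 1 in each genotype. Unstimulated, 1 was lower without p50, the ubiquitin ligase Birc3 (-0.67, adjusted p = 0.00396). With LPS 3 were higher, led by the receptor Cd40 (0.84) and Birc2 (0.52), and 1 was lower, the receptor Ltbr (-0.37). With LPS plus IL-10 2 were higher, Cd40 (1.48) and Birc2 (0.96), and none lower. Of 9 measured other IkB-like proteins and modulators, LPS raised 1 and lowered 2 in IL10-/- cells and raised 0 and lowered 4 in p50-/-IL10-/- cells. Unstimulated, 1 was lower without p50, Nkiras2 (-0.52). With LPS Nkiras1 (0.28) was higher, and Nkiras2 (-0.38) and Pias4 (-0.32) were lower. With LPS plus IL-10 0 were called by limma, with 2 at an unadjusted p under 0.05. Averaged over stimuli the counts higher and lower were 3 and 2 in the first list, 4 and 2 in the second, and 0 and 1 in the last. Of all genes 10.6% were called higher and 15.1% lower in that average. The shares were 1.26% and 1.31% unstimulated, 5.66% and 6.72% with LPS, and 7.58% and 10.4% with LPS plus IL-10. For the LPS response they were 7.76% and 17.1% in IL10-/- cells and 10.3% and 22.1% in p50-/-IL10-/- cells. Whether the lists differ from all genes was not tested. The median genotype difference with LPS plus IL-10 was 0.02, 0.21 and 0.01 in the 3 lists, beside 0.04 for all genes. For the difference in LPS response 0 genes of the lists were called by limma, with 2 of 15, 3 of 10 and 3 of 9 at an unadjusted p under 0.05. Of all genes 10.0% reached that threshold in this comparison, 13.8% in the unstimulated genotype difference and 32.8% in the one with LPS plus IL-10.

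The profile over the 12 arrays most like each member's was found by Pearson correlation among 1557 or 1558 genes whose group means spanned at least 1 log2. These arrays share 6 groups, so the values are a description. For Nfkbie the nearest were Etv6 (0.983) and Birc3 (0.979), for Rel Hinfp (0.987) and Il6 (0.981), for Relb Larp1 (0.987) and Znrf1 (0.983), and for Nfkb2 Sdc4 (0.980) and Ehd1 (0.979). Nfkbia lay nearest Tlr2 (0.991), Rela nearest Nrp2 (0.982), Nfkbib nearest Cdkn1a (0.987) and Nfkbiz nearest Mitf (0.987). For Bcl3 they were Slc39a14 (0.967) and the transcription factor gene Stat3 (0.950), and its highest correlation with another member was 0.676 with Rela.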

How the data were processed

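The authors deposited log2 expression values, 1 per probe set and array, for 12 Affymetrix arrays. RMA and limma were named in the submitters' processing notes, and their versions are not given in the sources used here. These deposited log2 values were used without further scaling. Of 22690 probe sets, 64 controls were left out, 20380 had 1 gene symbol, and the probe set with the highest mean stood for each of 12393 genes. A group-means model was fitted over the 6 groups with limma 3.58.1 in R 4.3.3, and 12 contrasts were tested two-sided with Benjamini-Hochberg adjustment at 0.05. The number of arrays (2 a group, 6 residual degrees of freedom) limits the precision. The median SE of a group difference was 0.0998 log2. The procedure was tested on simulated data. Members, marker and pathway lists were chosen with earlier results of these data known. The genes named were the members, up to 2 rises and 2 falls per pathway list and comparison, and the 2 nearest profiles. Alternatives were array centring, quantile normalization, other probe set choices, a dim-gene filter, a variance trend, only the compared groups, a replicate block, and leaving out each array.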

Additional observations from a re-analysis of the deposited data

Results flagged for a closer look

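The larger LPS response of Nfkbie in p50-/-IL10-/- cells, a difference in log2 change of 1.37 ± 0.18 between the genotypes (limma, adjusted p = 0.00888), stood out because the same treatment gave different effects in the 2 genotypes and that difference was itself tested. The 2 LPS-treated groups were close, and most of the difference lay in the unstimulated p50-/-IL10-/- arrays, 6.97 and 6.65 log2 against 7.96 and 7.85.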

How the results depend on the processing

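The 9 members in 12 comparisons under 21 alternatives gave 2268 values. Of these, 2160 kept their side of the threshold, 80 were no longer called, 28 became called and 0 called values reversed. The 2160 include 37 uncalled values that changed sign. The count of members called for the IL-10 effect in IL10-/- cells, 6, was 3 with only the groups compared and 2 to 6 without single arrays (2 without array 1 of the IL10-/- group given LPS or of the one given both, 3 without array 2 of the latter). The count for the genotype difference with LPS, 2, was 1 with only the groups compared and 1 to 3 without single arrays. Same-numbered arrays deviated together in the 10 pairs among 5 of the 6 groups (correlations of 0.17 to 0.60), and in the opposite way in all 5 pairs with p50-/-IL10-/- cells given LPS plus IL-10 (-0.49 to -0.17), so that the numbers could not be taken to pair all samples. The replicate block used the numbers as labelled, also in that group. Whether the numbers were exchanged there was not tested. With the replicate block, 4 members were called for the genotype difference with LPS plus IL-10 (3 without it). For the average 5 were called (4 without it: Relb and Nfkbiz gained, Rela lost). Within genotypes the block also gained Bcl3 for the LPS response in IL10-/- cells. Over all genes the block within genotypes moved the calls for the IL-10 difference from 17 to 74 and for the unstimulated genotype difference from 318 to 576. With 2 arrays a group, a change that was not called is not shown to be absent.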
